A study of Mus musculus with 2 samples.

Results

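Purine and fractalkine sensing in microglia was described through 8 genes, chosen as a list of names with no cutoff on a measured value, out of 31053 genes in the count table. They were the receptor genes P2ry12, P2ry13, P2ry6, P2rx4, P2rx7, Gpr34 and Cx3cr1, and Entpd1, whose product breaks down extracellular nucleotides. The cells were microglia, the resident macrophages of the brain, sorted from the hypothalamus of young wild-type mice 20 hours after the animals had received plasma protein tagged with a dye. Mice were pooled, and the sort divided microglia into those without the dye (plasma-negative) and those with it (plasma-positive). Both groups therefore shared the genotype and the injection, and differed in the dye signal at sorting. Each group was 1 droplet library of single cells, so no difference has a replicate check, no test was run, and every 95% interval covers counting error only. Differences that arose in sample handling or library preparation cannot be told apart from differences between plasma-negative and plasma-positive cells.

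Microglia read ATP, ADP and UDP that damaged or active cells release through 2 kinds of receptor, the G protein-coupled P2Y receptors and the P2X ion channels. P2Y12 senses ADP and directs microglial processes towards its source, P2Y13 also senses ADP, P2Y6 senses UDP and promotes engulfment, and P2X7 opens at high ATP and feeds the inflammasome. CX3CR1 is the receptor for fractalkine, a chemokine that neurons display, GPR34 binds lysophosphatidylserine, and CD39, the product of Entpd1, removes ATP and ADP. P2ry12, Gpr34 and Cx3cr1 are widely used as markers of resting microglia.

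All 8 genes were found in the GENCODE M21 annotation of mouse build GRCm38, as protein-coding genes, and 4 of them form neighbouring pairs. P2ry13 (ENSMUSG00000036362, chromosome 3, 59207892 to 59210882) and P2ry12 (ENSMUSG00000036353, chromosome 3, 59216272 to 59262871) lie on the minus strand, 5389 bases apart. P2rx7 (ENSMUSG00000029468, chromosome 5, 122643911 to 122691432) and P2rx4 (ENSMUSG00000029470, chromosome 5, 122707544 to 122729738) lie on the plus strand, 16111 bases apart. P2ry6 (ENSMUSG00000048779) lies on chromosome 7 from 100937630 to 100974649, minus strand, and Cx3cr1 (ENSMUSG00000052336) on chromosome 9 from 119901616 to 120069879, minus strand. Entpd1 (ENSMUSG00000048120) lies on chromosome 19 from 40612366 to 40741602, plus strand, and Gpr34 (ENSMUSG00000040229) on chromosome X from 13632089 to 13640858, plus strand. P2ry12 and P2ry13 lie inside Med12l on its opposite strand, and exons of P2ry12 and Med12l overlap. Gpr34 lies inside Cask, also on the opposite strand, and exons of the antisense gene Gm33858 overlap those of Cx3cr1. The use of strand in counting was not given in the sources used here, so counts could be shared between these genes. In CPM, the UMIs (unique molecular identifiers, each standing for 1 captured RNA molecule) of a gene per 1000000 UMIs of its library, Med12l was at 45.6 and 39.7, Cask at 61.9 and 56.5 and Gm33858 at 19.2 and 15.7, in the negative and positive library respectively, all far below the members they overlap.

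RefSeq promoter windows matched 6 of the 8 genes. The windows of P2ry13 and P2rx4 are shown because in the plasma-positive library these genes differed in opposite directions in the Apoe-rich cells described further on. Each line is 250 bases that end just before the start site, read 5′ to 3′ on the gene's strand in build GRCm38.p6, with any GAGGAA, a core bound by the macrophage factor PU.1, in capitals.
P2ry13 (chr3:59210883-59211132, minus strand): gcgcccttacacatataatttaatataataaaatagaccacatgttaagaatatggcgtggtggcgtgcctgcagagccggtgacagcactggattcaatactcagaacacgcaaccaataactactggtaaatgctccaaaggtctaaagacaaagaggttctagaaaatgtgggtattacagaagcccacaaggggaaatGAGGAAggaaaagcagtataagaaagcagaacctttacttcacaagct
P2rx4 (chr5:122707294-122707543, plus strand): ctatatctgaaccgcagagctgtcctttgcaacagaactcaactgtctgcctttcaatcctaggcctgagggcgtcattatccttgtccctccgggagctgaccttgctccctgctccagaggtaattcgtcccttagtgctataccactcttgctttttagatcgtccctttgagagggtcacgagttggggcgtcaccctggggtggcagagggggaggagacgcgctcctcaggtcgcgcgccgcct
Searched on both strands, the P2ry13 window held 1 GAGGAA, beginning 48 bases before the start site, and the P2rx4 window held none. GAGGAA was present in 23.3% of 32851 promoter windows of that length. Neither window held GAAANNGAA, a core of the interferon response element found in 7.13% of windows, or TATAAA, found in 12.4%. The GC content was 41.6% for P2ry13 and 57.2% for P2rx4. The windows of P2ry12 and Cx3cr1, genes that were also lower in Apoe-rich plasma-positive cells, held no GAGGAA. Entpd1, lower there too, had 1 window with 2 and another with 0. These matches describe letters in the windows, and the data do not bear on binding there.

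The filters kept 9860 plasma-negative cells, with 34534518 UMIs in all, and 10362 plasma-positive cells, with 41984977. A cell had 3270.5 and 3753 UMIs at the median, and the median share of mitochondrially encoded UMIs was 1.08% and 1.27%. The label microglia held up against 12 microglia markers that exclude the 8 genes: at least 3 of them were seen in 9857 plasma-negative and 10361 plasma-positive cells, and together they made up 84988 and 88067 CPM. Lists for 12 other cell types were summed per library. Markers of neutrophils were all at 0, and T or NK cells, mural cells or fibroblasts and erythroid cells reached at most 0.238 CPM. Astrocytes or tanycytes reached at most 1.67, monocytes 4.98, neurons 5.84 and border-associated macrophages 6.19. Endothelial cells reached 24.3, the oligodendrocyte lineage 29.7, B cells 48.7 and platelets and megakaryocytes 62.6 CPM. Platelets, which also use P2ry12, were represented almost wholly by Gp9 at 60.8 and 57.7 CPM, while Ppbp and Tubb1 were at 0 in both libraries. Among the B cell markers, Cd79b alone gave 48.1 and 48.7.

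All 8 genes were at a lower level in the plasma-positive library, by 3.86% for Entpd1 to 12.4% for Cx3cr1. Because each molecule was counted once near its 3′ end, CPM were not divided by gene length. Together the 8 genes took 1.37% of the plasma-negative library and 1.24% of the plasma-positive one, from 472193 and 519557 UMIs. The log2 ratio of these sums, plasma-positive over plasma-negative, was -0.14 (-0.15 to -0.14), and it was -0.10 (-0.11 to -0.09) with Cx3cr1 left out. Cx3cr1 and P2ry12 alone supplied 68.6% and 67.9% of the members' UMIs.

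**Figure D1:**
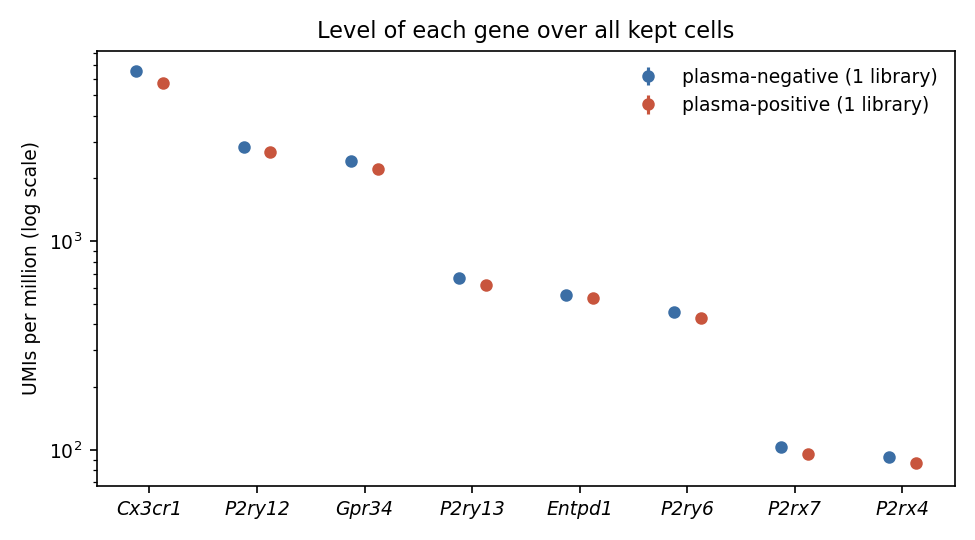
Level of each of the 8 genes in the 2 libraries, in CPM on a log axis, with 1 point per library; the 95% Poisson intervals are shorter than the points. The order of the genes was the same in both libraries, from Cx3cr1 to P2rx4, and each plasma-positive point lies below its plasma-negative neighbour.

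The fractalkine receptor gene Cx3cr1 was the most abundant member, at 6543 (6516 to 6570) CPM in the plasma-negative and 5733 (5711 to 5756) in the plasma-positive library. It ranked 9 among all genes in each. Its 225953 and 240720 UMIs gave a log2 ratio of -0.19 (-0.20 to -0.18), which lay at percentile 3.76 of the 3540 genes with at least 50 CPM in a library. Cx3cr1 was thus the member with the largest difference between the libraries.

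Among the ADP receptor genes, P2ry12 was at 2836 (2818 to 2854) and 2667 (2652 to 2683) CPM, ranking 18 and 23. The log2 ratio of P2ry12 was -0.09 (-0.10 to -0.08). P2ry13, its neighbour on chromosome 3, was at 669.5 (661 to 678) and 617 (609 to 624), with a log2 ratio of -0.12 (-0.14 to -0.09). The neighbouring genes thus differed several-fold in level, while the intervals of their log2 ratios overlapped. The UDP receptor gene P2ry6 was at 460.4 (453 to 468) and 427 (421 to 434), a log2 ratio of -0.11 (-0.14 to -0.08).

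Gpr34, the lysophosphatidylserine receptor gene, was the third most abundant, at 2413 (2397 to 2430) and 2214 (2200 to 2228) CPM. Its log2 ratio was -0.12 (-0.14 to -0.11). The channel genes were the rarest members. P2rx7 was at 103.9 (100.5 to 107) and 95.8 (92.9 to 98.8), a log2 ratio of -0.12 (-0.18 to -0.05), and P2rx4 was at 92.9 (89.7 to 96.2) and 86.8 (84.04 to 89.7), a log2 ratio of -0.10 (-0.17 to -0.03). Entpd1, encoding the ATP- and ADP-degrading enzyme, was at 555 (547 to 563) and 533 (526 to 540), a log2 ratio of -0.06 (-0.08 to -0.03). The Poisson intervals of the libraries did not overlap for any member except P2rx4, where they met.

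By the rule of size used here, a level at least 1.1-fold lower, 1 of 8 members was called, Cx3cr1, against 11.5% of the 3540 genes. No member was at least 1.1-fold higher, against 7.18% of those genes. At 1.5-fold no member was called in either direction, where 0.141% of genes were higher and 0% lower. The median log2 ratio of the members was -0.11 (-0.14 to -0.08), beside -0.03 for all 3540 genes, of which 60.96% were below 0 and whose 5th and 95th percentiles were -0.18 and 0.16. Thus 1 call in 8 is near the share among all genes, and 7 of the 8 ratios lie within the central range of all genes. Scaling by TMM, which sets the bulk of genes to equal levels, changed the balance of all genes to 5.40% lower and 12.4% higher at 1.1-fold and moved their median by 0.04. All 8 members stayed below 0 under it and under the other 8 alternatives computed for each member.

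Detection was highest for Cx3cr1 and lowest for P2rx4. Over all kept cells, a UMI of Cx3cr1 was seen in 98.8% of cells without the dye and 98.7% of cells with it, and one of P2ry12 in 94.8% and 95.6%. Gpr34 was seen in 94.9% and 95.4% of cells, and P2ry13 in 79.0% and 80.9%. Entpd1 had 76.4% and 79.5%, P2ry6 72.3% and 74.1%, P2rx7 28.5% and 30.0%, and P2rx4 25.2% and 26.8%. Plasma-positive cells were deeper, so these shares do not compare the groups. With each cell thinned at random to 1000 UMIs, which left out 796 and 603 shallower cells, 9064 plasma-negative and 9759 plasma-positive cells remained. Detection was then lower in plasma-positive cells for every member: 98.7% and 97.7% for Cx3cr1, 90.2% and 87.7% for P2ry12, and 87.2% and 85.0% for Gpr34. P2ry13 gave 46.8% and 44.3%, Entpd1 41.3% and 40.1%, P2ry6 36.03% and 34.6%, P2rx7 9.76% and 8.99%, and P2rx4 8.44% and 7.97%. The exact binomial intervals did not overlap for Cx3cr1, P2ry12, Gpr34 and P2ry13, and overlapped for the other 4. Nearly all cells were microglia, so the share that free RNA in the droplets contributes could not be read from cells that lack these genes.

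Cell-to-cell spread was read from the thinned counts as the excess squared coefficient of variation, the variance beyond that of random sampling divided by the squared mean. It was 0.122 in plasma-negative and 0.135 in plasma-positive cells for Cx3cr1, 0.126 and 0.165 for P2ry12, and 0.157 and 0.172 for Gpr34. The medians over all genes at 50 CPM were 0.345 and 0.307, although rarer genes dominate those medians. Entpd1 had 0.0860 and 0.106, P2ry13 0.207 and 0.154, and P2ry6 0.203 and 0.156. With cells thinned to 2000 UMIs, P2ry13 had 0.149 and 0.155 and P2ry6 0.117 and 0.211, so the order of the libraries for these genes depends on the depth used. The channel genes gave 0.612 and 0.249 for P2rx4 and 0.242 and 0.0550 for P2rx7, at a mean of about 0.1 UMIs per cell, where this measure is imprecise.

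**Figure D2:**
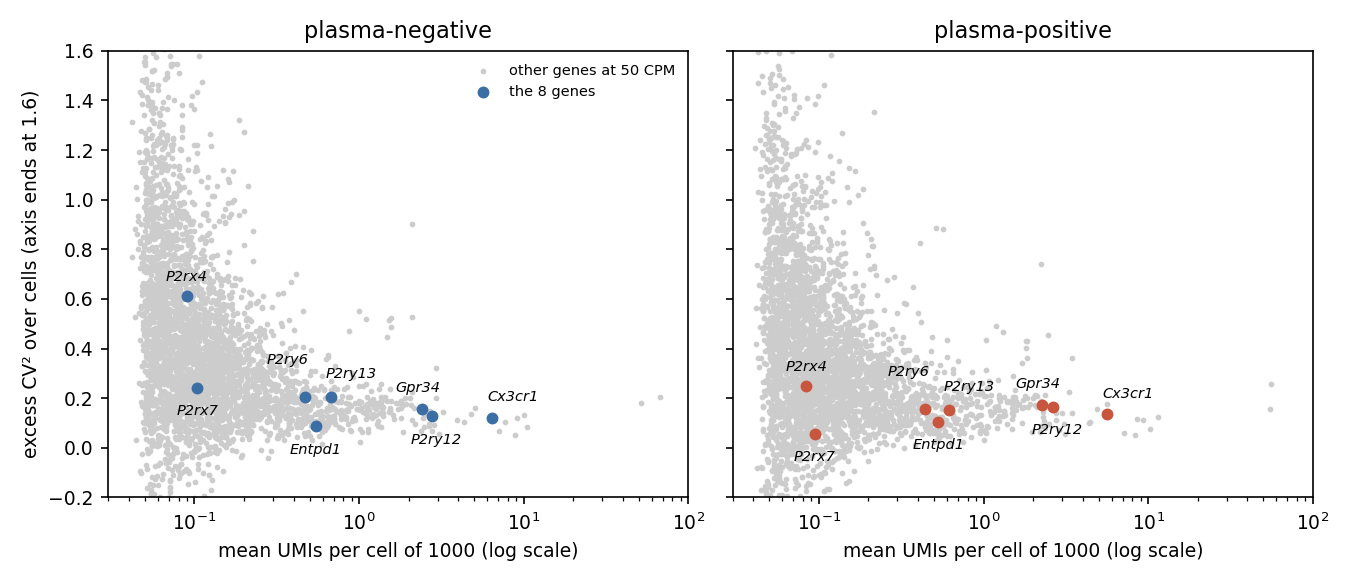
Excess squared coefficient of variation over cells thinned to 1000 UMIs against the mean UMIs per cell (log axis), in each library; grey points are the other genes with at least 50 CPM, and genes above 1.6 or below -0.2 are outside the axis. The abundant members Cx3cr1, P2ry12 and Gpr34 lie between 0.122 and 0.172, and P2rx4 and P2rx7 lie among rare genes with widely scattered values.

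More cells lacked the abundant receptors than sampling at a common mean would leave. For Cx3cr1, 1.26% of plasma-negative cells had no UMI after thinning where a Poisson distribution of the same mean gives 0.163%, and 2.25% of plasma-positive cells where it gives 0.361%. P2ry12 had 9.79% against 6.15% in plasma-negative cells and 12.3% against 7.17% in plasma-positive cells. Gpr34 had 12.8% against 8.85% and 15.01% against 10.4%. For P2rx7 and P2rx4 observed and Poisson shares of empty cells differed by less than 0.2 percentage points in both libraries.

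**Figure D3:**
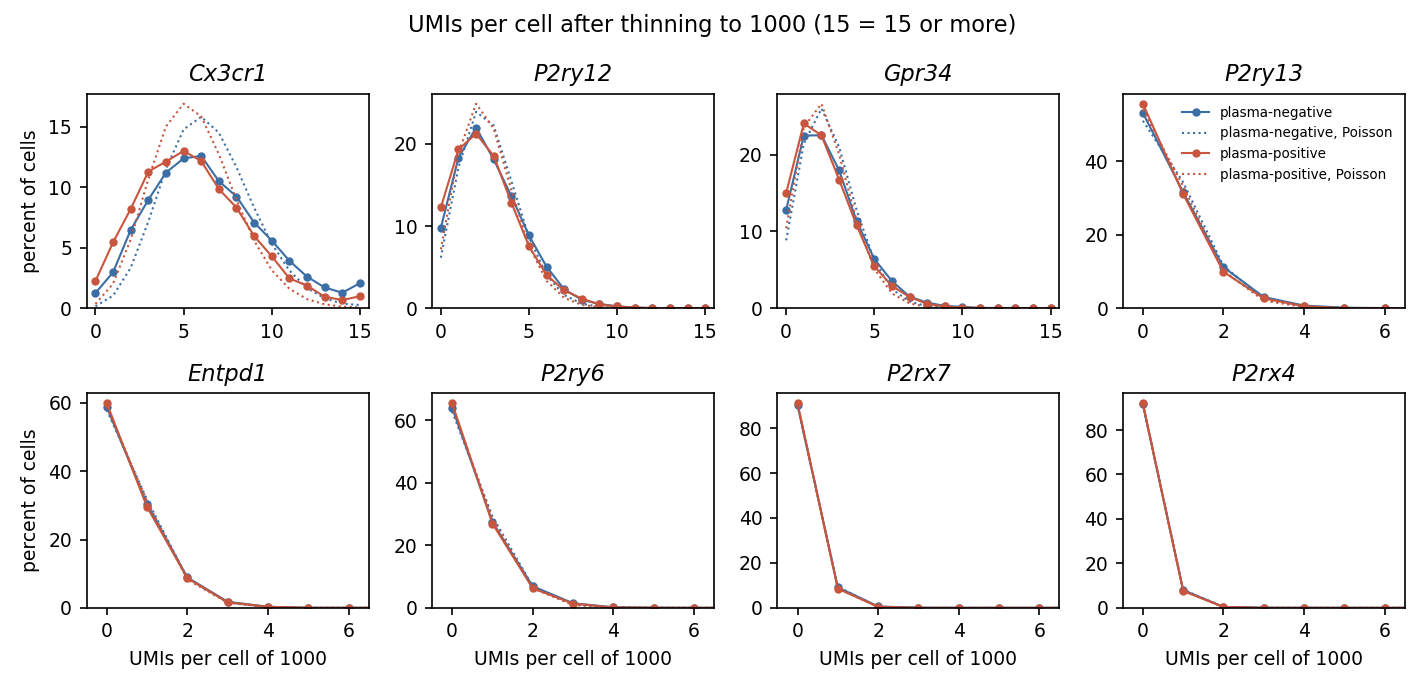
Percent of cells with each number of UMIs of a gene after thinning to 1000 UMIs (solid lines with points), beside a Poisson distribution of the same mean (dotted lines), for the 8 genes in both libraries. The Cx3cr1 curves are broader than the dotted lines at both ends, with 1.26% and 2.25% of cells at 0, whereas the curves of P2rx7 and P2rx4 lie on them.

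A median of 4 of the 8 genes was detected per thinned cell in each library, and 7 plasma-negative and 16 plasma-positive cells had none. Cells without any UMI of either P2ry12 or Cx3cr1 numbered 30 (0.331%, 0.223% to 0.472%) in the plasma-negative and 70 (0.717%, 0.560% to 0.905%) in the plasma-positive library. If the genes were missed independently, 0.123% and 0.277% would lack both. These cells still carried the microglia gene C1qa, at 10333 and 9314 CPM. Tmem119 was at 600.0 and 443 CPM there, against 1280 and 1207 in the remaining cells. Apoe, which encodes apolipoprotein E, was at 1467 and 10471 CPM in them, against 163 and 967 in the remaining cells.

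Members covaried weakly over thinned cells, which share library and depth. Pearson's r over the 28 pairs ran from -0.02 to 0.12 in the plasma-negative library and from -0.02 to 0.15 in the other, with medians of 0.01 and 0.02. The highest was P2ry12 with Cx3cr1, at 0.12 and 0.15. Of 3532 other genes, those most like P2ry12 by the lower of the libraries' r included Marcks, Sparc, Serinc3 and Selplg, at 0.08 to 0.09. For Cx3cr1 the 5 most alike were Serinc3, Maf, Sparc, Marcks and Siglech, at 0.09 to 0.11, and for the sum of the members Serinc3, Sparc, Maf, Marcks and Siglech, at 0.11 to 0.15. In sparse counts such values are small, and they are given only as an order.

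The levels also differed between cells of 1 library by how much Apoe they held, the gene with the highest ratio between the libraries among the 3540 with at least 50 CPM, at 171 and 1190 CPM. After thinning, 147 plasma-negative (1.62%) and 621 plasma-positive (6.36%) cells held at least 3 Apoe UMIs, called Apoe-rich here, and 8333 and 7931 cells held none. These are ranges of a count and not cell types, with 124 and 256 cells at 2 Apoe UMIs and 63 and 113 at 3. Within the plasma-positive library P2ry12 was at 1416 (1323 to 1512) CPM in Apoe-rich cells and 2757 (2720 to 2794) in cells without Apoe, a log2 ratio of -0.96 (-1.06 to -0.86). P2ry13 was at 389.7 and 639.5, a log2 ratio of -0.71 (-0.91 to -0.53), and Gpr34 at 1472 and 2339, a log2 ratio of -0.67 (-0.77 to -0.57). Entpd1 was at 367 and 548, a log2 ratio of -0.58 (-0.78 to -0.39). Cx3cr1 was at 4311 and 5736, a log2 ratio of -0.41 (-0.47 to -0.36). In this library the ADP receptor genes were thus lower by more than the fractalkine receptor gene.

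The other 3 members were not all lower in Apoe-rich plasma-positive cells. P2rx4, a channel gene known for its place in endosomes and lysosomes, was at 124 (97.9 to 155) CPM against 80.3 (74.2 to 86.8), a log2 ratio of 0.63 (0.27 to 0.97), from 77 UMIs in the Apoe-rich cells. Its neighbour P2rx7 was at 88.6 and 92.5, a log2 ratio of -0.06 (-0.49 to 0.33), so a difference was not detectable at this depth. P2ry6 was at 369 and 447, a log2 ratio of -0.28 (-0.48 to -0.08), but with all UMIs of the same cells the ratio was -0.02.

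At 1.5-fold, 3 members were lower in the Apoe-rich plasma-positive cells, P2ry12, P2ry13 and Gpr34, and 1 was higher, P2rx4. Among all 3410 genes compared, 11.8% were lower and 2.82% higher by that rule, with a median log2 ratio of -0.20. A gene at 50 CPM had only about 31.1 UMIs in these cells, so rare genes pass the rule easily. Among the 333 genes with at least 400 CPM in cells without Apoe, a minimum chosen after the values were seen, 5.41% were lower and 16.5% higher, with a median of 0.03. In Apoe-rich plasma-negative cells 0 members were called, beside 17.9% of 3470 genes lower and 3.98% higher.

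Within the plasma-negative library P2ry12 was at 2238 (2003 to 2494) CPM in Apoe-rich cells and 2804 in cells without Apoe, a log2 ratio of -0.33 (-0.49 to -0.17). Cx3cr1 had a log2 ratio of -0.34 (-0.45 to -0.24), Gpr34 one of -0.42 (-0.60 to -0.24) and P2ry13 one of -0.29 (-0.62 to 0.03). Here the ADP receptor genes were not lower by more than Cx3cr1, and the intervals overlap. P2rx4 had one of -0.57 (-1.70 to 0.36), from 9 UMIs, whose interval overlaps that of the plasma-positive library, and its direction turned to 0.18 (-0.24 to 0.56) with ranges set at 2000 UMIs. The interval of P2ry12 does not overlap its plasma-positive one, but the difference between the libraries was not tested. Apoe-rich cells were also richer in Apoe in the plasma-positive library, with a mean of 13.9 UMIs per thinned cell against 5.51. In the narrower range of 3 to 5 Apoe UMIs, P2ry12 was at 2425 (2137 to 2740) and 1916 (1748 to 2096), Cx3cr1 at 5085 and 4884, and Gpr34 at 1764 and 1711. At 6 or more, where 41 plasma-negative and 372 plasma-positive cells lay, P2ry12 was at 1756 (1374 to 2212) and 1081 (978 to 1192), and Cx3cr1 at 5171 and 3927.

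**Figure D4:**
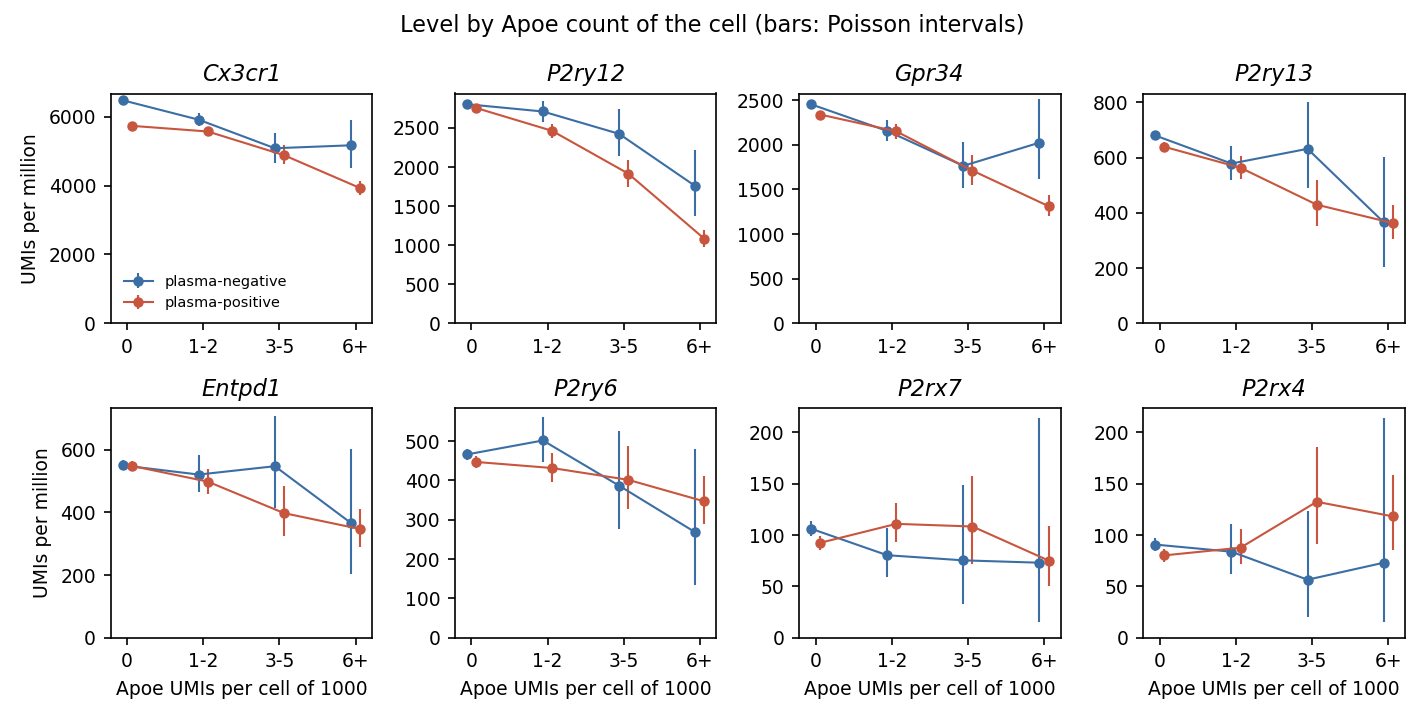
Level of each gene in CPM, with 95% Poisson intervals, in cells grouped by their Apoe UMIs after thinning to 1000 UMIs, for both libraries. In plasma-positive cells P2ry12 goes from 2757 at 0 to 1081 at 6 or more Apoe UMIs, while P2rx4 is higher at 3 or more than at 0; plasma-negative intervals are wide at 6 or more, where 41 cells lie.

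The median depth before thinning was 3329 UMIs in Apoe-rich and 3368 in Apoe-free plasma-negative cells, and 4344 and 3826 in plasma-positive cells. The median mitochondrial share was higher in Apoe-rich cells, at 1.55% against 1.04% and at 1.74% against 1.21%, and its part in the result was not tested. At least 3 microglia markers were present in all 147 and 621 Apoe-rich cells. The 7 border-associated macrophage markers summed to 37.1 CPM in Apoe-rich plasma-positive cells against 3.47 in Apoe-free ones, with Lyve1 at 0, and to 7.73 against 3.42 in plasma-negative cells, where 5 of the 7 were at 0 in Apoe-rich cells. At least 3 of these markers were seen in 4 Apoe-rich plasma-positive cells and in no Apoe-rich plasma-negative cell. Without the plasma-positive cells that held any of them, 48 of which were Apoe-rich, the log2 ratio was -0.91 for P2ry12, -0.41 for Cx3cr1, -0.67 for Gpr34 and 0.64 for P2rx4. Cells with the highest doublet scores made up 6.12% of Apoe-rich and 8.88% of Apoe-free plasma-positive cells, and the ratios without them were -1.001 for P2ry12 and 0.62 for P2rx4.

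Cells with at least 3 UMIs of 15 type I interferon response genes numbered 128 plasma-negative and 519 plasma-positive, against 6855 and 6725 with none. In plasma-positive cells P2ry12 was at 1784 and 2738 CPM, a log2 ratio of -0.62 (-0.71 to -0.52). Gpr34 had a log2 ratio of -0.46 (-0.56 to -0.36), P2ry13 of -0.40 (-0.59 to -0.22), Entpd1 of -0.33 (-0.53 to -0.13) and Cx3cr1 of -0.27 (-0.33 to -0.21). P2rx7 was at 61.7 and 95.3, a log2 ratio of -0.63 (-1.19 to -0.12), but with all UMIs of the same cells it was -0.21, and with ranges set at 2000 UMIs it was -0.16 (-0.42 to 0.08). P2ry6, at -0.02 (-0.22 to 0.18), showed no difference detectable at this depth. P2rx4 was at 0.20 (-0.25 to 0.62), and at 0.36 (0.13 to 0.59) with ranges set at 2000 UMIs. In plasma-negative cells the log2 ratio was -0.37 (-0.55 to -0.20) for P2ry12, -0.51 (-0.90 to -0.14) for P2ry13, -0.11 (-0.22 to -0.01) for Cx3cr1 and -0.04 (-0.21 to 0.12) for Gpr34. With ranges set at 2000 UMIs the P2ry13 value was -0.12 (-0.26 to 0.02). The 6 monocyte markers summed to 24.2 CPM in interferon-rich and 4.31 CPM in interferon-free plasma-negative cells, with Ly6c2, Vcan, S100a4 and Chil3 at 0 in the former, and to 17.0 and 4.03 CPM in plasma-positive cells, with Ly6c2 and Chil3 at 0. The border-associated macrophage markers summed to 6.05 and 3.72 CPM and to 27.5 and 3.86 CPM. The part of the monocyte markers in the result was not tested, and without cells that held a border-associated macrophage marker the log2 ratio of P2ry12 was -0.37 in plasma-negative and -0.59 in plasma-positive cells.

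Apoe and interferon genes partly marked the same plasma-positive cells, so the ranges were also crossed. P2ry12 was at 2808 CPM in 5639 plasma-positive cells with neither, 2184 (2024 to 2353) in 316 cells with interferon genes alone, 1732 (1579 to 1895) in 272 with Apoe alone and 914 (762 to 1087) in 139 with at least 3 UMIs of both. These intervals do not overlap. Cx3cr1 was at 5770, 5266, 4610 and 3410 in the same order, and Gpr34 at 2359, 1959, 1695 and 1173. P2rx7 was at 91.9, 50.6 (28.9 to 82.2), 80.9 (50.7 to 122) and 86.3 (44.6 to 151), and P2rx4 at 79.1, 88.6 (58.9 to 128), 132 (92.7 to 183) and 122 (71.2 to 196), so the intervals overlap between the last 3 ranges for each channel gene. Only 4 plasma-negative cells held both.

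Other lists were banded in the same way. For 7 chemokine genes, P2ry12 had a log2 ratio of -0.66 in 97 plasma-negative and -0.83 in 385 plasma-positive cells with at least 3 UMIs, and Cx3cr1 of -0.27 and -0.33. For 11 cell cycle genes the values were -0.997 and -1.60 for P2ry12 in 15 and 40 cells, and -0.07 (-0.38 to 0.23) and -0.91 (-1.18 to -0.65) for Cx3cr1. For 6 MHC class II genes, P2ry12 had -0.00 (-0.16 to 0.15) in 126 cells of the plasma-negative library and -0.37 (-0.53 to -0.21) in 161 of the other. Genes of disease-associated microglia other than Apoe, 9 of 10 of which were listed, reached 3 UMIs in only 15 and 26 cells, where P2ry12 had -0.69 (-1.31 to -0.14) and -2.22 (-3.05 to -1.49). For 12 immediate early genes, which dissociation can induce, the log2 ratio of the summed members was 0.07 and 0.06 in 850 and 776 cells, the only list for which it was above 0. In plasma-positive cells these ranges also differed in Apoe and interferon UMIs, whose part in the ratios was not tested. Mean Apoe UMIs inside and outside the range were 6.19 and 0.824 for chemokines and 3.46 and 0.995 for MHC class II. They were 12.6 and 1.00 for disease-associated, 0.375 and 1.04 for cell cycle and 0.709 and 1.06 for immediate early genes. For chemokines, mean interferon-list UMIs were 3.91 and 0.517 there and 3.33 and 0.313 in plasma-negative cells.

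Among cells with no Apoe and no interferon-list UMI, 6336 plasma-negative and 5639 plasma-positive, the log2 ratio between the libraries was nearer 0 than over all cells for P2ry12, Entpd1, P2ry13 and Gpr34, and close to its value over all cells for Cx3cr1. Cx3cr1 was at 6709 and 5938 CPM with all UMIs of these cells, a log2 ratio of -0.18 (-0.19 to -0.17). P2ry12 had a log2 ratio of -0.04 (-0.05 to -0.02), Entpd1 of -0.00 (-0.04 to 0.03), P2ry13 of -0.07 (-0.10 to -0.04) and Gpr34 of -0.09 (-0.10 to -0.07). P2ry6 had -0.12 (-0.16 to -0.09), P2rx4 -0.16 (-0.25 to -0.07) and P2rx7 -0.17 (-0.25 to -0.08). Each of these ratios lay within the gene's counting interval over all cells, so a shift from the all-cell ratio was not detectable. The median log2 ratio of all genes with at least 50 CPM was -0.014 in these cells, against -0.028 over all cells. In these cells Cx3cr1, P2rx4 and P2rx7 were at least 1.1-fold lower, beside 9.07% of all genes.

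Because the libraries differed in depth and mitochondrial share, the ratios were computed within 5 bins of equal size by each. By total UMIs, Cx3cr1, P2ry12, Gpr34 and P2ry13 were lower in plasma-positive cells in 5 of 5 bins, P2ry6, P2rx7 and Entpd1 in 4 and P2rx4 in 3. The log2 ratio of Cx3cr1 lay between -0.26 and -0.15. By mitochondrial share all 8 were lower in 5 of 5 bins, with Cx3cr1 between -0.20 and -0.11 and P2ry12 between -0.13 and -0.02. Cx3cr1 itself was at 7029 CPM in the plasma-negative bin of lowest mitochondrial share and 5507 in that of the highest.

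Other genes of purine and fractalkine signalling formed a list of 85, of which 84 were in the table, 8 were at 0 in both libraries and 35 reached 50 CPM. Of these 35, plasma-positive cells had 1 at a level at least 1.1-fold higher and 3 at a level at least 1.1-fold lower, none passed 1.5-fold, and the median log2 ratio was 0.00. Among all genes 7.18% were higher and 11.5% lower by that rule. The higher one was Ctss, which encodes the protease cathepsin S that sheds fractalkine, at 7650 and 8573, a log2 ratio of 0.16 (0.16 to 0.17). The lower ones were Arrb2, for a beta-arrestin, at 269.8 and 241 (-0.16), Kcnk13, for the THIK-1 potassium channel that acts in microglial surveillance, at 89.997 and 80.4 (-0.16), and Abhd16a, for an enzyme that makes lysophosphatidylserine, at 50.4 and 44.4 (-0.18).

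Other receptors of the same families were scarce. Among genes listed as other P2Y receptors, a grouping by name, P2ry10b was the most abundant, at 53.2 and 49.8 CPM. P2ry2 was at 0.434 and 0.357 and P2ry14 at 0.203 and 0.524. P2rx1 was the most abundant other P2X gene, at 6.34 and 5.98. Adora3 led the adenosine receptors at 128 and 123. Among adenosine enzymes and transporters, Pnp was at 357 and 358 and Slc29a3 at 331 and 342, and Lrrc8a led the ATP release channels at 34.1 and 32.4. Rgs10, a regulator of G protein signalling, was at 1305 and 1351, the inflammasome adaptor gene Pycard at 462 and 464, and Abhd12, which degrades lysophosphatidylserine, at 638 and 656. Cx3cl1, which encodes fractalkine itself, had 0 UMIs in the plasma-negative library, which allows up to 0.0869 CPM, and 6 UMIs in the plasma-positive one.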

How the data were processed

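Single-cell RNA of sorted hypothalamic microglia was measured in 2 libraries, 1 per group. The authors deposited unnormalized UMI counts for every gene in every cell, from a 10x Genomics droplet kit (v3.1 chemistry, 3′ ends) per the labels' protocols. Cell Ranger 6.1.2 wrote them per the file headers, while the submitters' processing notes name Cell Ranger 3.0.1. Genome build, annotation, use of strand and cell calling were not given in the sources used here, and cell barcodes were not used here. The counts cannot show reads shared between overlapping genes.

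Cells were kept with 500 or more UMIs, 300 or more genes and no more than 10% mitochondrial UMIs, leaving out 18 plasma-negative and 28 plasma-positive cells. Counts were summed per library, scaled to CPM (counts per 1000000 UMIs) and compared, without a pseudocount, for genes with at least 50 CPM in a library, by size at 1.1-fold and 1.5-fold. With 1 library per group no test was run. Sums carry exact Poisson, shares exact binomial (Clopper-Pearson) and ratios exact conditional binomial intervals at 95%. Spread, detection and ranges of Apoe or other list UMIs used cells thinned to 1000 UMIs. Scrublet (scanpy 1.11.5) called 0 doublets in both libraries, so its threshold had not worked. Doublets were therefore kept, and an alternative removed the 778 and 859 highest scores. Named genes were the 8 members, the most abundant and size-called pathway genes, the 5 genes most like a member, and overlapping genes; some of these are not reported here. The members and lists were chosen with earlier results of these data known. The size rule, the intervals and the spread measure were tested on simulated data. Alternatives covered scaling (TMM in edgeR 4.0.16), cell weighting, thinning depth, cell and level filters, doublets and restriction to cells without Apoe or interferon UMIs. Analyses used Python 3.11.15, numpy 2.4.6, scipy 1.17.1 and pandas 2.3.3. Coordinates came from GENCODE M21 (GRCm38) and promoters from RefSeq, which need not be the build the authors used.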

Additional observations from a re-analysis of the deposited data

How the results depend on the processing

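Of 315 recomputed values, 247 stayed within the counting interval or the tolerance set for counts and spread, 68 moved further, and none whose interval left out 0 changed sign. Signs did change where the interval included 0, for P2rx4 in plasma-negative cells and P2ry6 in both libraries within Apoe or interferon ranges. Every member's log2 ratio between the libraries stayed below 0 in 9 of 9 alternatives, from -0.19 to -0.15 for Cx3cr1, -0.10 to -0.04 for P2ry12 and -0.06 to -0.00 for Entpd1. The number of members at least 1.1-fold lower was 2 when cells were thinned to 1000 or to 2000 UMIs (Cx3cr1 and P2rx7), beside 15.1% and 12.99% of all genes, and 3 in cells without Apoe or interferon UMIs (with P2rx4), beside 9.07%. The median log2 ratio of the members was -0.074 with TMM scaling. The log2 ratio of the summed members was -0.11 with TMM scaling, -0.12 without mitochondrial and ribosomal protein genes, -0.12 as a mean over cells, -0.14 with cells thinned to 1000 UMIs and -0.12 in cells without Apoe or interferon UMIs. TMM and the total without mitochondrial and ribosomal protein genes shift all ratios alike, and for the others the cause was not tested. With Apoe ranges set at 2000 UMIs, which admit cells with less Apoe, the plasma-positive log2 ratio of P2ry12 was -0.73, of Gpr34 -0.53 and of Entpd1 -0.34. For the ratios within Apoe and interferon ranges, using all UMIs of the same cells, removing high doublet scores and leaving out cells with border-associated macrophage markers were chosen after seeing the data. With 1 library per group no replicate could be left out. No paired analysis was possible because there was only a single library on each side and no test. Low counts limit the precision for P2rx4, P2rx7 and the ranges with few cells.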

Other observations

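Among pathway genes below 50 CPM, 3 that were higher in the plasma-positive library were singled out after their values were seen. Adora1, an adenosine receptor gene, was at 0.695 CPM without the dye and 2.55 CPM with it, from 24 and 107 UMIs, a log2 ratio of 1.87. Il1b, the gene of the inflammasome product interleukin-1 beta, was at 1.65 and 4.64, from 57 and 195 UMIs, a log2 ratio of 1.49. Ccr1, a chemokine receptor gene, was at 11.96 and 17.8, from 413 and 747 UMIs, a log2 ratio of 0.57. The other pathway genes below 50 CPM whose counting interval left out 0 went both ways. Gnai1 had a log2 ratio of 2.24, from 4 and 23 UMIs, P2ry14 of 1.37 and Enpp2 of 1.30. Entpd6 had one of -0.18, Panx1 of -0.33 and Ccr2 of -0.49. The share among all genes below 50 CPM is not given here. Each of these genes has 1 library per group and no replicate check.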
